A study of Homo sapiens with 24 samples.

Results

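MCM2, MCM3, MCM4, MCM5, MCM6 and MCM7, the subunits of the replicative helicase, and CDC6, CDT1, ORC1 and ORC6, which help to load it onto DNA, were followed by RNA-seq after siRNA against the nucleoporin POM121 in 2 human prostate cancer sublines. The genes were taken by symbol, and all 10 of 10 were found, each on 1 line of a table of 25277 symbols. All 10 passed the filter on low values in every group and belong to the 13622 symbols tested. In 22Rv1DR cells all 10 transcripts were lower with siPOM121 than in controls, where 20.4% of the symbols tested were lower: over both constructs CDT1, the least changed, fell by 24.3%, and MCM3, the most changed, fell by 45.4%. With construct 2 alone CDT1 and ORC6 did not pass. In DU145DR cells, where 9.37% of symbols were lower, MCM3 fell by 10.6% and MCM7 fell by 12.6%, and the other 8 did not pass; this count of 2 ran from 0 to 5 when 1 library was left out (0 without control 1A).

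Before a cell enters S phase, the origin recognition complex, of which ORC1 and ORC6 are subunits, marks origins of replication. CDC6 and CDT1 then help it to load the ring of MCM2 to MCM7 around DNA in an inactive form, a step called licensing, and the rings are switched on in S phase when CDC45 and the GINS proteins join them. Geminin and the destruction of CDT1 stop origins from being licensed again in the same cycle. The genes are classic targets of E2F transcription factors, and MCM proteins are used as markers of proliferation in tumours, prostate cancer among them.

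The samples were 22Rv1DR and DU145DR cells given siPOM121 construct 1, siPOM121 construct 2 or a control treatment. Both sublines were derived from lines supplied by ATCC (22Rv1 and DU145), are called aggressive in the labels, and are used in the field as models of docetaxel resistance. The labels name the control arm only as Control and do not say what those cells received, and their condition field calls the siRNA arms a knockout, although siRNA gives a knockdown. Each of the 12 libraries was sequenced on 2 lanes, which makes 24 samples, and each of the 6 groups holds 2 libraries. Library codes end in B for construct 1, C for construct 2 and A for control; 4B, 5B, 4C, 5C, 4A and 5A are 22Rv1DR, and 1B, 2B, 1C, 2C, 1A and 2A are DU145DR. The labels do not state whether the libraries of a group are separate cultures, and a p-value here reflects the spread among these libraries alone.

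Sequence upstream of these genes is shown because E2F sites are what the family is known for. RefSeq promoter windows (GRCh38.p14, 250 bases before to 50 after a gene's start) were at hand for 8 of the 10 genes and not for MCM4 and MCM5. The letters TTTCCCGC, TTTGGCGC, TTTCGCGC and TTTGCCGC, forms of the E2F site, were searched on both strands. At least 1 was found for 6 of the 8 genes, in 6 of their 10 windows, against 3.31% of all 35116 windows of that length. In 4 of the 10 windows 2 or more were found, against 0.145% of all windows. The stretches below run 5′ to 3′ on the gene's own strand and reach 12 bases past the outermost match, and capitals mark the E2F letters.
CDC6: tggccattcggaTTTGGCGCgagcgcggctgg
CDT1: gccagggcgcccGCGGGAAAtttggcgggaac
MCM2: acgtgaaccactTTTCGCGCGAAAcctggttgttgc
MCM6: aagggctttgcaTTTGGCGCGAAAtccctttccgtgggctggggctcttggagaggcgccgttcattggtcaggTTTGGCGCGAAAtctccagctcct
MCM3: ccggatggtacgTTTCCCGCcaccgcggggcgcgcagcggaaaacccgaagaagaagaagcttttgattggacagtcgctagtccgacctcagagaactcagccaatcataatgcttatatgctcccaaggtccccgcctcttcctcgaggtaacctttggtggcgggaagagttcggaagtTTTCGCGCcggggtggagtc
MCM7: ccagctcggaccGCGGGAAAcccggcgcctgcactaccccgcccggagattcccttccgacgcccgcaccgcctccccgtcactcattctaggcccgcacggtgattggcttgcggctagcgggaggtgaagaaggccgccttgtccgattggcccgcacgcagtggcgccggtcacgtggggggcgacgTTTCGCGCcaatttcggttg

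The CDC6 stretch lies on the plus strand at chr17:40287874-40287905, that of CDT1 on the plus strand at chr16:88803742-88803773 and that of MCM2 on the plus strand at chr3:127598401-127598436. The MCM6 stretch lies on the minus strand at chr2:135876510-135876607, that of MCM3 on the minus strand at chr6:52284727-52284928 and that of MCM7 on the minus strand at chr7:100101387-100101596. In MCM2 and MCM6 matches on opposite strands overlap, with 2 matches in MCM2 and 4 in MCM6. MCM6 carries the same capital letters at a pair of places between positions -164 and -67 from the start, while the MCM2 matches lie just after the start. The letters CCAAT, which bind NF-Y, were found for 6 of the 8 genes against 34.6% of all windows, and a CCAAT of MCM7 shares a base with its E2F match. TTTGAA, the core of the CHR element of mitotic genes, was found for 0 of the 8 against 15.2% of windows. ORC1 and ORC6 held none of the E2F letters in these windows. A match is a description of letters, not a site of binding.

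The targeted transcript was lower in every siPOM121 library. In 22Rv1DR POM121 had 7.68 and 7.81 FPKM with construct 1, 6.73 and 7.43 FPKM with construct 2, and 38.5 and 37.8 FPKM in controls. In DU145DR it had 13.4 and 13.5 FPKM with construct 1, 12.5 and 13.2 FPKM with construct 2, and 21.6 and 21.3 FPKM in controls. POM121C, a close copy whose reads cannot be fully told from those of POM121, moved beside it, with 4.63, 4.33 and 26.7 FPKM in 22Rv1DR and 10.5, 10.1 and 16.9 FPKM in DU145DR (construct 1, construct 2, control). Sequencing depth is unknown, since the files hold FPKM, a fragment number scaled by transcript length and library size, and no counts. Between 12361 and 12569 symbols exceeded 1 FPKM, the floor of the table, in 22Rv1DR samples, and between 11884 and 12126 did in DU145DR samples. The 2 construct 2 libraries of 22Rv1DR, 4C and 5C, stood apart from each other. The median absolute deviation of their log2 differences, scaled to match a standard deviation, was 0.201 and 0.207 on their lower and higher lanes. Between the libraries of any other group it was 0.066 to 0.0958. Library 4A was read on lanes 1 and 2 and the other 22Rv1DR libraries on lanes 3 and 4, so results without 4A are those within 1 pair of lanes.

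All 10 members were past the test in 22Rv1DR over both constructs and all were lower (10 of 10), where 20.4% of the 13622 symbols tested were lower and 15.2% higher. Their median log2 fold change was -0.76, against -0.02 over all symbols tested. All 10 kept their direction and their call in each of the 24 alternatives, among them the one without 4A, with adjusted p up to 0.034 (ORC6). These tests are limma's, 2-sided and adjusted by Benjamini-Hochberg over all symbols at 0.05. Of the alternatives, the 2 filters, summed repeated symbols and leaving out a DU145DR library cannot change the members' 22Rv1DR fold changes. Nor can the replicate block, each line fitted alone or the array weights, which were equal for the libraries of a group. In a bulk sample, fewer cells in or near S phase and less of these mRNAs in each cell cannot be told apart.

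The helicase subunits are given first. MCM2 had 23.8 and 23.0 FPKM with construct 1, 27.6 and 28.8 FPKM with construct 2, and 45.0 and 46.3 FPKM in controls. MCM3 had 15.5 and 16.4 FPKM with construct 1, 20 and 19.9 FPKM with construct 2, and 32.7 FPKM in both controls. For MCM4 the values were 27.5 and 28.7 FPKM with construct 1, 40 and 37.9 FPKM with construct 2, and 58.3 and 55.6 FPKM in controls. In each of these 3 genes the mean of construct 1 was lowest and that of construct 2 lay between. The share of all symbols in this order was not counted.

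MCM5 stood at 26.7 and 26.1 FPKM with construct 1, 33.4 and 34.5 FPKM with construct 2, and 52.2 and 55.0 FPKM in controls. MCM6 stood at 12.7 and 13.5 FPKM with construct 1, 17.0 and 16.1 FPKM with construct 2, and 22.3 FPKM in both controls. MCM7, the most abundant subunit, stood at 106 and 104 FPKM with construct 1, 117 and 120 FPKM with construct 2, and 184 and 189 FPKM in controls. The same order of means, construct 1 lowest and control highest, held here. The control lanes of MCM7 disagreed, with 163 and 208 FPKM on the lanes of 4A and 167 and 214 FPKM on those of 5A, while its siPOM121 lanes lay between 102 and 121 FPKM. The higher control lanes are thus further from siPOM121, and the log2 fold change of MCM7 over both constructs was -0.57 on the lower-numbered lanes alone and -0.92 on the higher-numbered lanes alone.

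With construct 1 the log2 fold changes of the subunits against control were -0.96 ± 0.05 for MCM2 (SE, adjusted p = 8.89e-06), -1.04 ± 0.04 for MCM3 (adjusted p = 3.16e-06) and -1.02 ± 0.04 for MCM4 (adjusted p = 3.33e-06). Those of MCM5, MCM6 and MCM7 were -1.02 ± 0.05 (adjusted p = 4.56e-06), -0.77 ± 0.05 (adjusted p = 1.23e-05) and -0.83 ± 0.06 (adjusted p = 2e-05). All 10 members were lower with construct 1, where 15.2% of symbols were. With construct 2 the changes were smaller in each subunit: -0.70 ± 0.05 for MCM2 (adjusted p = 8.87e-05), -0.71 ± 0.04 for MCM3 (adjusted p = 4.79e-05), -0.55 ± 0.04 for MCM4 (adjusted p = 0.000126), -0.66 ± 0.05 for MCM5 (adjusted p = 8.77e-05), -0.43 ± 0.05 for MCM6 (adjusted p = 0.000367) and -0.65 ± 0.06 for MCM7 (adjusted p = 0.000142). With construct 2, 8 of the 10 members were lower, where 20.6% of symbols were.

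Of the loading factors, CDC6, the ATPase that joins the origin recognition complex to recruit the helicase, had 12.7 and 13.3 FPKM with construct 1, 20.7 and 19.1 FPKM with construct 2, and 25.8 and 26.2 FPKM in controls. CDT1, which brings the MCM ring to the origin, had 21.9 and 22.4 FPKM with construct 1, 31.8 and 30.8 FPKM with construct 2, and 34.2 and 35.3 FPKM in controls. In both genes the mean of construct 2 lay between those of construct 1 and control, and in CDT1 it lay nearer to the control. The log2 fold changes of CDC6 were -1 ± 0.05 with construct 1 (adjusted p = 7.16e-06) and -0.38 ± 0.05 with construct 2 (adjusted p = 0.00089). Those of CDT1 were -0.65 ± 0.06 (adjusted p = 0.000139) and -0.15 ± 0.06 (adjusted p = 0.0894), the second of which did not pass.

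ORC1, the largest subunit of the origin recognition complex and one that is broken down in S phase in human cells, was the least abundant member. It had 4.31 and 3.95 FPKM with construct 1, 5.89 and 5.96 FPKM with construct 2, and 8.43 and 8.70 FPKM in controls. Its log2 fold changes were -1.05 ± 0.06 (adjusted p = 8.89e-06) with construct 1 and -0.53 ± 0.06 (adjusted p = 0.000349) with construct 2. ORC6, the smallest subunit, had 18.7 and 19.1 FPKM with construct 1, 30 and 23.9 FPKM with construct 2, and 30.9 and 29.5 FPKM in controls. Library 4C lay within the control range of ORC6 and 5C below it, so this is the one member whose siPOM121 and control libraries overlapped. ORC6 changed by -0.67 ± 0.09 with construct 1 (adjusted p = 0.000695) and stood at -0.17 ± 0.09 with construct 2 (adjusted p = 0.156). Without 4C, which leaves 1 construct 2 library, the construct 2 value of ORC6 was -0.34. Over all alternatives it ran from -0.34 to -0.01. In 9 of the 10 members every siPOM121 library of 22Rv1DR lay below both controls, where 27.3% of symbols did.

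**Figure D1:**
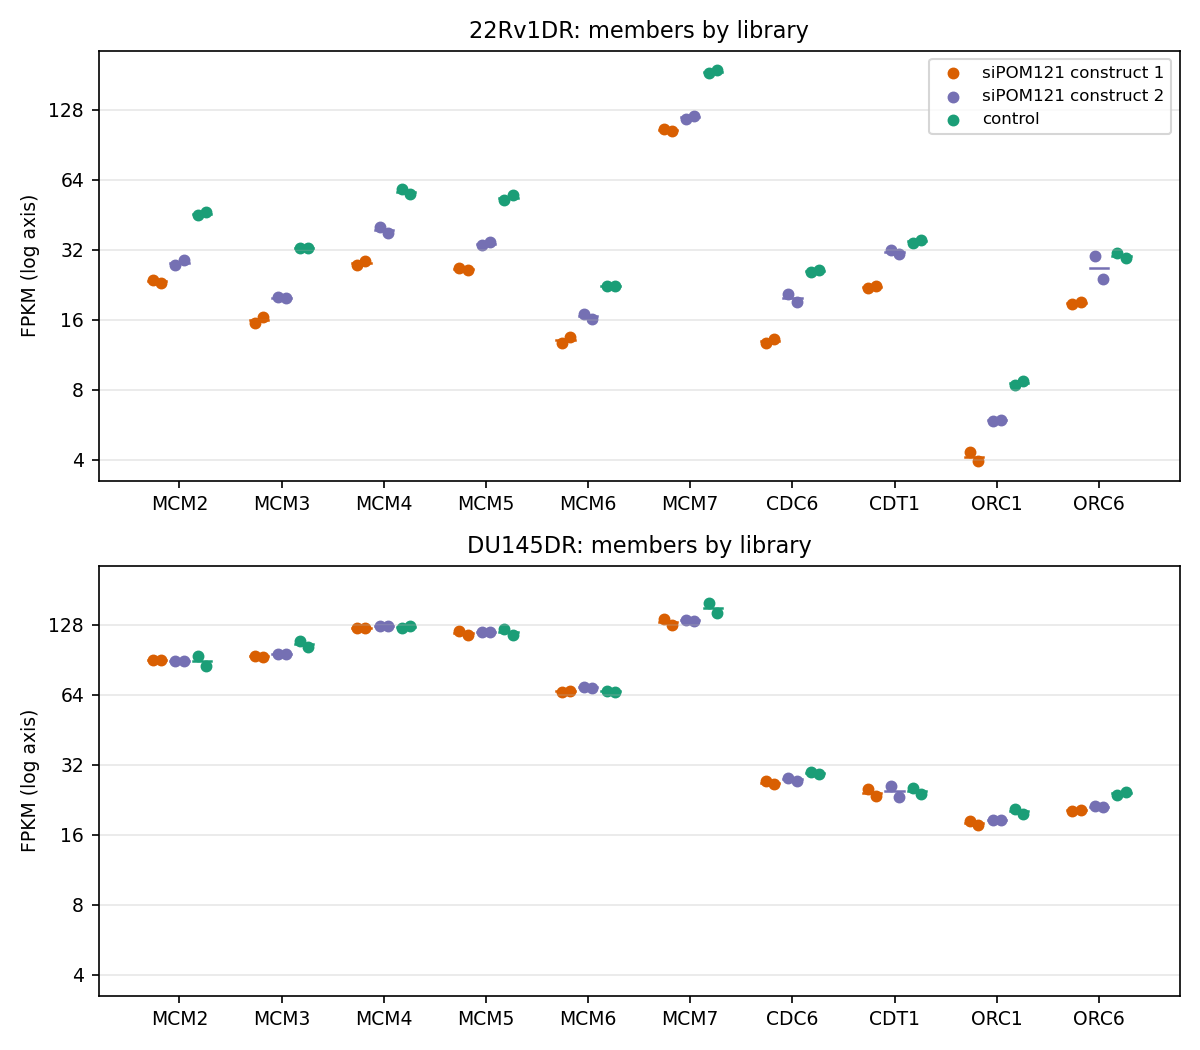
FPKM (log axis) of the 10 members in each of the 12 libraries, 22Rv1DR above and DU145DR below; dots are libraries (2 lanes averaged), bars are group means on the log scale, with construct 1, construct 2 and control from left to right. In 22Rv1DR the bar of construct 1 is lowest and that of control highest in every member, while in DU145DR the groups lie close together.

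The members differed between the constructs in 22Rv1DR. In 9 of 10 the transcript was higher with construct 2 than with construct 1, where 7.3% of symbols were, and the median log2 difference of the 10 was 0.42 against -0.01 over all symbols. It was 0.61 ± 0.05 for CDC6 (adjusted p = 0.000595), 0.52 ± 0.06 for ORC1 (adjusted p = 0.00152), 0.50 ± 0.06 for CDT1 (adjusted p = 0.00278) and 0.50 ± 0.09 for ORC6 (adjusted p = 0.0103). Among the helicase subunits it was largest for MCM4, at 0.47 ± 0.04 (adjusted p = 0.00103), and smallest for MCM2, at 0.27 ± 0.05 (adjusted p = 0.015), and MCM7, at 0.18 ± 0.06 (adjusted p = 0.0679), which did not pass. The median was 0.51 for the 4 loading and ORC genes and 0.33 for the 6 helicase genes. POM121 itself stood at -0.13 ± 0.06 between the constructs (adjusted p = 0.153). With 22Rv1DR fitted alone 2 of the 10 passed, and with libraries weighted by their spread 3 did. Libraries 4C and 5C had 6.73 and 7.43 FPKM of POM121, close to the 7.68 and 7.81 FPKM of 4B and 5B. A relation of these small differences to the levels of the members was not tested.

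**Figure D2:**
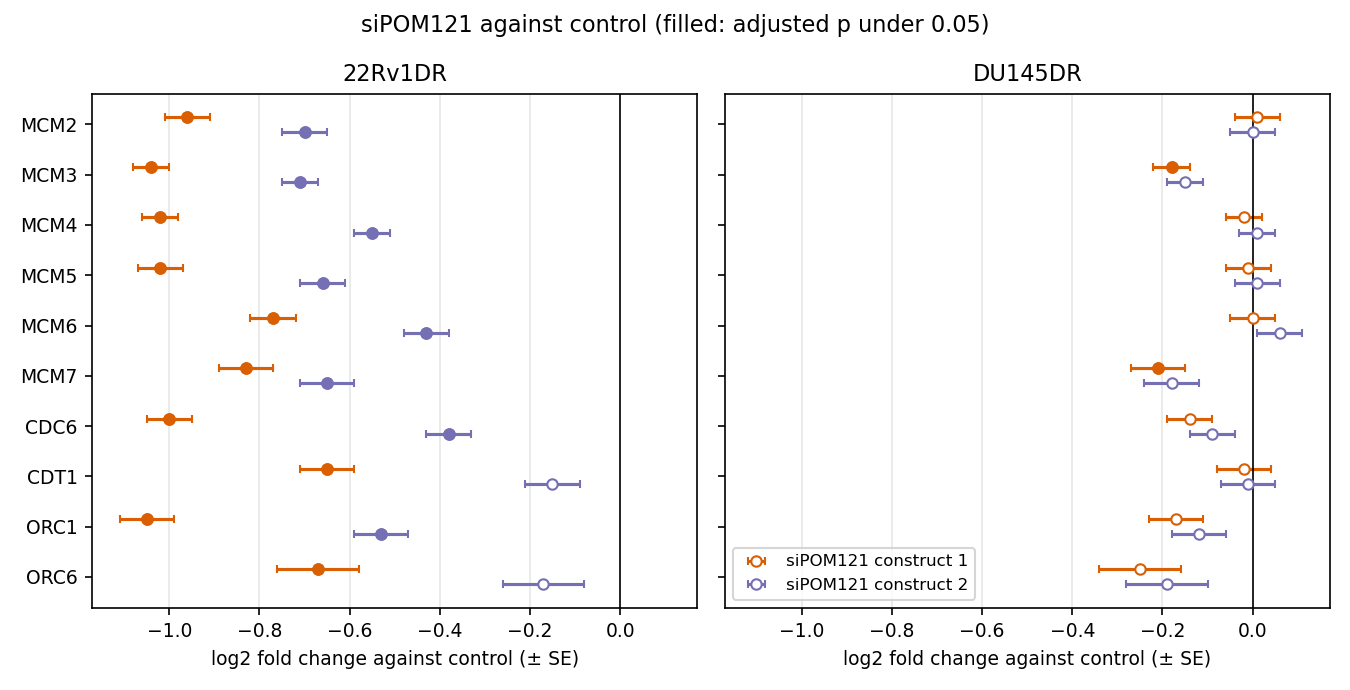
Log2 fold change of each member against control with its SE (bars), for construct 1 and construct 2, in 22Rv1DR (left) and DU145DR (right); filled points passed an adjusted p of 0.05. In 22Rv1DR every construct 1 point lies left of its construct 2 point, while in DU145DR the constructs lie within 0.06 of each other.

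**Figure D3:**
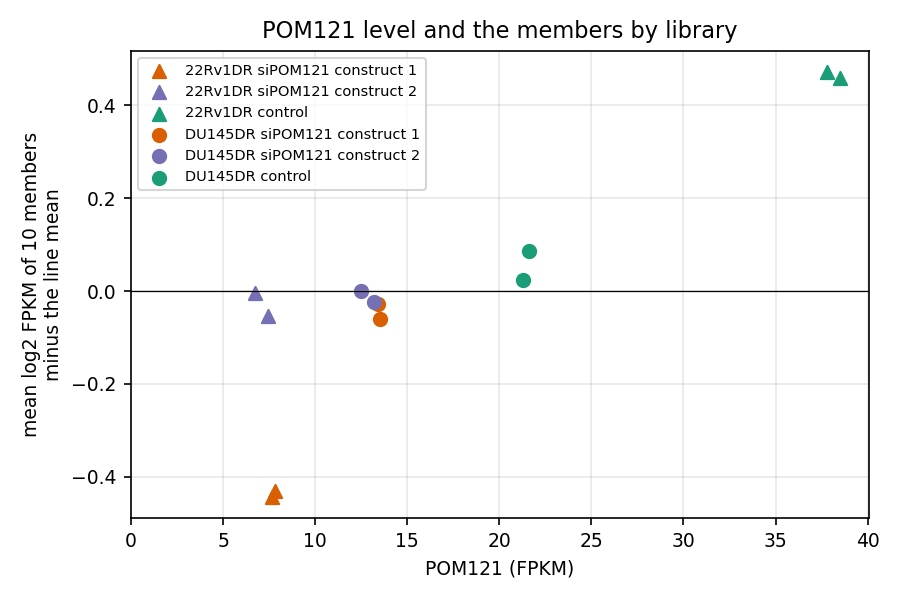
POM121 in FPKM (horizontal axis) and the mean log2 FPKM of the 10 members minus the mean of their line (vertical axis), 1 point per library. In 22Rv1DR the construct 1 libraries stand at -0.443 and -0.43, the construct 2 libraries at -0.005 and -0.053 and the controls at 0.459 and 0.472, while both constructs have 6.73 to 7.81 FPKM of POM121.

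In DU145DR the members moved little. Over both constructs 2 of 10 were lower, where 9.37% of symbols were, and 0 were higher, where 14.5% were. MCM3 had 94.2 and 93.1 FPKM with construct 1, 95.5 and 96.0 FPKM with construct 2, and 109 and 103 FPKM in controls, a log2 fold change of -0.16 ± 0.04 (adjusted p = 0.0151). MCM7 had 135 and 127 FPKM with construct 1, 134 and 133 FPKM with construct 2, and 159 and 144 FPKM in controls, a log2 fold change of -0.19 ± 0.05 (adjusted p = 0.0179). In both genes all 4 siPOM121 libraries lay below both controls, and control 1A was the highest library. Without 1A neither passed, with -0.12 for MCM3 (adjusted p = 0.158) and -0.12 for MCM7 (adjusted p = 0.189).

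Library values of the other subunits in DU145DR lay close together. MCM2 had 89.7 and 89.8 FPKM with construct 1, 89.2 and 89.4 FPKM with construct 2, and 93.7 and 85.1 FPKM in controls. MCM4 had 124 FPKM in both construct 1 libraries, 126 FPKM in both construct 2 libraries, and 124 and 126 FPKM in controls. Here the siPOM121 libraries were not separated from the controls. MCM5 ran from 116 to 120 FPKM with siPOM121 and had 123 and 115 FPKM in controls, and MCM6 ran from 65.5 to 69.1 FPKM with siPOM121 and had 66.4 and 65.7 FPKM in controls. The log2 fold changes of MCM2, MCM4, MCM5 and MCM6 lay between 0.00 and 0.03, each with an SE of 0.04.

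ORC6 had 20.3 and 20.4 FPKM with construct 1, 21.3 and 21.0 FPKM with construct 2, and 23.7 and 24.5 FPKM in DU145DR controls, a log2 fold change of -0.22 ± 0.08 (adjusted p = 0.0689). ORC1 had 18.3 and 17.6 FPKM with construct 1, 18.5 FPKM in both construct 2 libraries, and 20.7 and 19.7 FPKM in controls (-0.15 ± 0.05, adjusted p = 0.0558). CDC6 had 27.1 and 26.5 FPKM with construct 1, 28.1 and 27.2 FPKM with construct 2, and 29.7 and 29.3 FPKM in controls (-0.12 ± 0.04, adjusted p = 0.093). None of these 3 passed, yet in each the siPOM121 libraries lay below both controls, as they did in 5 of the 10 members and in 22.0% of symbols. Without 4C, without 5C, with DU145DR fitted alone and with libraries weighted by their spread, all 3 passed and the count was 5 of 10; 4C and 5C are 22Rv1DR libraries and enter the DU145DR test only through the shared spread. CDT1 had 25.2 and 23.4 FPKM with construct 1, 25.9 and 23.3 FPKM with construct 2, and 25.5 and 23.9 FPKM in controls (-0.02 ± 0.05, adjusted p = 0.954).

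By construct, MCM3 and MCM7 were called with construct 1 in DU145DR (2 of 10, where 7.62% of symbols were lower), at -0.18 ± 0.04 (adjusted p = 0.0224) and -0.21 ± 0.06 (adjusted p = 0.0284). With construct 2, limma called 0 of 10, where 5.62% of symbols were lower, and 2 had an unadjusted p under 0.05. MCM3 then stood at -0.15 ± 0.04 (adjusted p = 0.0541) and MCM7 at -0.18 ± 0.06 (adjusted p = 0.0553). Between the constructs 0 of 10 differed, where 0.022% of symbols differed in either direction, and 0 had an unadjusted p under 0.05. Those differences ran from -0.01 to 0.06. Counts of DU145DR members by construct depended on single libraries and ran from 0 to 5 for construct 1 and from 0 to 3 for construct 2 when 1 library was left out.

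The size of the response differed between the lines. The 22Rv1DR effect was lower than the DU145DR effect in 9 of 10 members, where 15.9% of symbols were, with a median difference of -0.64 on the log2 scale against -0.06 over all symbols. The difference was -0.84 ± 0.06 for MCM5 and -0.83 ± 0.06 for MCM2, followed by MCM4 (-0.78 ± 0.05), MCM3 (-0.71 ± 0.05), ORC1 (-0.65 ± 0.07), MCM6 (-0.63 ± 0.06), CDC6 (-0.58 ± 0.06), MCM7 (-0.55 ± 0.07) and CDT1 (-0.39 ± 0.08). Adjusted p ran from 0.000105 (MCM4 and MCM5) to 0.00778 (CDT1). For ORC6 it was -0.21 ± 0.11 and did not pass (adjusted p = 0.19). It was -0.29 without 4C and ran from -0.29 to -0.12 over the alternatives. POM121 also differed, at -1.66 ± 0.07 (adjusted p = 2.84e-06), so the depth of the knockdown and the line cannot be told apart.

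The lines already differed without siPOM121. In controls 7 of 10 members were lower in 22Rv1DR than in DU145DR, where 42.7% of symbols were, and 3 were higher, where 40.3% were. MCM3 had 32.7 FPKM in 22Rv1DR controls and 106 FPKM in DU145DR controls (log2 difference -1.70 ± 0.04), and MCM6 had 22.3 and 66.0 FPKM (-1.57 ± 0.05). ORC1 (-1.24 ± 0.06), MCM5 (-1.15 ± 0.05), MCM4 (-1.14 ± 0.04) and MCM2 (-0.97 ± 0.05) were lower by less, with adjusted p from 3.32e-10 (MCM3) to 5.78e-08 (MCM2) over these 6 genes. CDT1 was higher in 22Rv1DR, with 34.8 FPKM against 24.7 FPKM (0.49 ± 0.06, adjusted p = 4.44e-05). MCM7 (187 against 151 FPKM, 0.30 ± 0.06, adjusted p = 0.000584), ORC6 (30.2 against 24.1 FPKM, 0.32 ± 0.09, adjusted p = 0.00655) and CDC6 (26.0 against 29.5 FPKM, -0.18 ± 0.05, adjusted p = 0.00786) lost their calls under other scalings. Quantile normalization gave 0.10 for MCM7 (adjusted p = 0.149) and -0.03 for CDC6 (adjusted p = 0.657), and rescaling every sample to the same summed FPKM gave 0.12 for MCM7 and 0.14 for ORC6, neither past the test. That rescaling moved the median of all symbols to -0.19, against -0.02 as deposited, so each of these line differences holds only relative to that shift.

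The subunits form a ring with 1 copy of each, and their FPKM levels, which are per length, can be set side by side. In 22Rv1DR with construct 1 the order was MCM7 (105 FPKM), MCM4 (28.1), MCM5 (26.4), MCM2 (23.4), CDT1 (22.1), ORC6 (18.9), MCM3 (16), MCM6 (13.1), CDC6 (13) and ORC1 (4.12), and of these neighbours MCM6 and CDC6 overlapped. With construct 2 it was MCM7 (118 FPKM), MCM4 (38.9), MCM5 (33.9), CDT1 (31.3), MCM2 (28.2), ORC6 (26.7), MCM3 (19.9), CDC6 (19.9), MCM6 (16.5) and ORC1 (5.93), where MCM2 overlapped ORC6 and MCM3 overlapped CDC6. In controls it was MCM7 (187 FPKM), MCM4 (56.9), MCM5 (53.6), MCM2 (45.6), CDT1 (34.8), MCM3 (32.7), ORC6 (30.2), CDC6 (26.0), MCM6 (22.3) and ORC1 (8.57), with no overlap between neighbours. In DU145DR the order was the same in all 3 groups, and in controls it read MCM7 (151 FPKM), MCM4 (125), MCM5 (119), MCM3 (106), MCM2 (89.3), MCM6 (66.0), CDC6 (29.5), CDT1 (24.7), ORC6 (24.1) and ORC1 (20.2). Among neighbours in DU145DR, overlap was seen for CDT1 and ORC6 in controls alone. CDT1 thus ranked above MCM3 in every 22Rv1DR group and below all 6 helicase subunits in DU145DR.

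MCM7 stood far above the other subunits in 22Rv1DR and only somewhat above them in DU145DR. Its ratio to the geometric mean of MCM2 to MCM6 was 5.20 and 5.01 with construct 1, 4.44 and 4.62 with construct 2, and 4.63 and 4.71 in controls of 22Rv1DR. In DU145DR it was 1.41 and 1.33 with construct 1, 1.38 and 1.36 with construct 2, and 1.58 and 1.49 in controls. The highest subunit was 6.88 to 8.46 times the lowest in 22Rv1DR libraries and 1.9 to 2.4 times in DU145DR libraries. In GENCODE v29, 7.58% of the exon bases of MCM7 are shared with AP4M1 on the opposite strand, and AP4M1 is listed at 0 in all 24 samples. The library type does not keep strand, so reads in that overlap cannot be told apart, and their part in the MCM7 level was not tested. Likewise 30.7% of the exon bases of MCM2 lie opposite the antisense gene AC023593.1 and 1.24% opposite TPRA1, which had 11.2 to 13.9 FPKM over all 22Rv1DR libraries and 36.8 to 41.4 FPKM over all DU145DR libraries. At most 3.33% of the 50-base windows of any member's transcript (ORC6) occur in another gene.

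**Figure D4:**
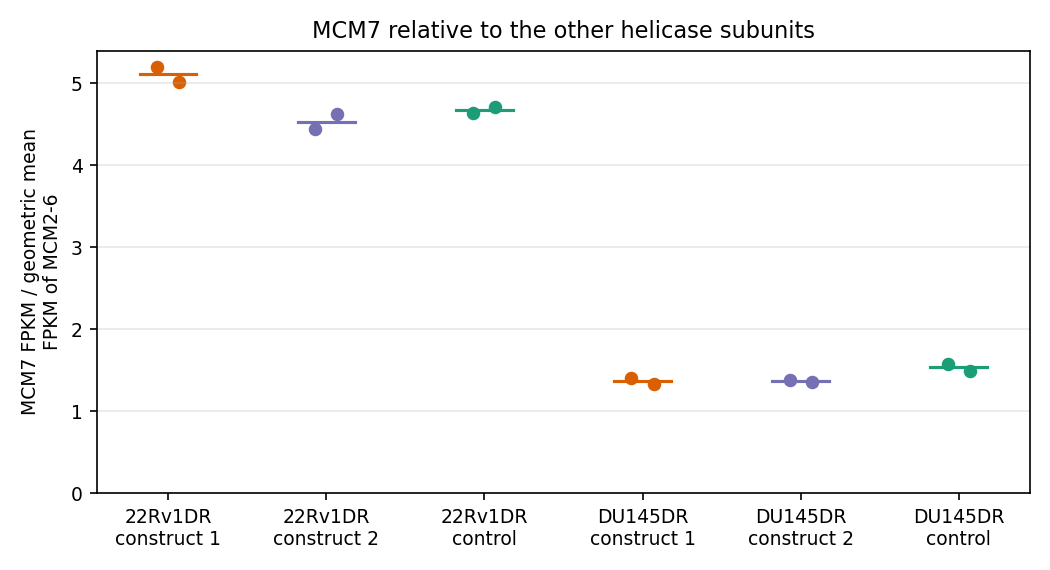
MCM7 FPKM divided by the geometric mean FPKM of MCM2 to MCM6 in each library (dots; bars are group means), for construct 1, construct 2 and control of 22Rv1DR and then DU145DR. The 6 libraries of 22Rv1DR lie between 4.44 and 5.20 and the 6 of DU145DR between 1.33 and 1.58.

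Summed over the 10 members, 22Rv1DR libraries held 269 and 270 FPKM with construct 1, 343 and 337 FPKM with construct 2, and 495 and 502 FPKM in controls. DU145DR libraries held 719 and 704 FPKM with construct 1, 727 and 722 FPKM with construct 2, and 775 and 735 FPKM in controls. The siPOM121 sums were thus below both controls in each line, with a wide gap in 22Rv1DR and a narrow one in DU145DR. Taken singly, 9 of the 10 members lay below both controls in 22Rv1DR, where 27.3% of symbols did. In DU145DR 5 of the 10 did, where 22.0% of symbols did, and MCM2, MCM4, MCM5, MCM6 and CDT1 overlapped the controls. The DU145DR sums are thus not a shift shared by all members.

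The rest of the licensing pathway was followed in lists. Of all symbols tested, 20.4% were lower and 15.2% higher in 22Rv1DR, and 9.37% were lower and 14.5% higher in DU145DR. Of the other origin recognition genes (ORC2, ORC3, ORC4, ORC5 and the complex's partner LRWD1), limma called 0 of 5 in 22Rv1DR, with 3 at an unadjusted p under 0.05, a median of -0.09 and a range of -0.29 to 0.20; leaving out 4C gave 2 calls and leaving out 5C gave 4. In DU145DR 2 of these 5 were lower, ORC5 (-0.32 ± 0.06, adjusted p = 0.00594) and ORC2 (-0.23 ± 0.05, adjusted p = 0.0158). Among relatives and partners of the MCM proteins, 4 of 5 were lower in 22Rv1DR: MCM8 (-0.51 ± 0.06), a helicase of homologous recombination, MCM3AP (-0.40 ± 0.04), which takes part in mRNA export, MCM9 (-0.37 ± 0.10), the partner of MCM8, and MCMBP (-0.19 ± 0.04), which binds MCM proteins. KAT7, the acetyltransferase also called HBO1, stood at -0.15 ± 0.06 (adjusted p = 0.108), and it is named here after its value was seen. In DU145DR MCMBP alone of the 5 passed (-0.14 ± 0.04, adjusted p = 0.0452).

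A list of geminin, ubiquitin ligase genes and UHRF1 is labelled licensing control in the plot of lists. In 22Rv1DR 8 of its 10 genes were lower (median -0.31), where 20.4% of symbols were. The other 2 were higher, near the 15.2% of all symbols that were. The genes of this list do not all restrict licensing: CDC20 and FZR1 activate the anaphase-promoting complex, which destroys geminin. UHRF1 (-0.71 ± 0.04, adjusted p = 9.37e-06), known for keeping DNA methylation at replicated DNA, CDC20 (-0.63 ± 0.09), CUL4A (-0.41 ± 0.07), of the ligase that destroys CDT1, and CCNF (-0.37 ± 0.06), the cyclin F that targets CDC6, were lower. The 2 higher genes, named after their values were seen, were GMNN, which encodes geminin (0.16 ± 0.05, adjusted p = 0.0402), and CUL4B (0.16 ± 0.04, adjusted p = 0.0195). By construct, GMNN had 74.2 FPKM with construct 1, 93.3 FPKM with construct 2 and 74.6 FPKM in controls, so construct 2 alone was higher. In DU145DR UHRF1 was lower (-0.12 ± 0.04, adjusted p = 0.0443), CUL4B was higher (0.17 ± 0.04, adjusted p = 0.023) and GMNN stood at 0.00 ± 0.05.

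Origin firing genes, which turn loaded rings into working forks, were lower in 16 of 18 cases in 22Rv1DR (median -0.56) and in 3 of 18 in DU145DR (median -0.04), and 0 were higher in either line. By construct in 22Rv1DR, 17 were lower with construct 1 and 14 with construct 2, where 15.2% and 20.6% of symbols were. In 22Rv1DR CLSPN, the checkpoint mediator, changed by -0.85 ± 0.06, MCM10, an activator of the helicase, by -0.81 ± 0.05, CDC45, part of the active helicase, by -0.78 ± 0.05, and TIMELESS, a fork protector, by -0.61 ± 0.04, each with an adjusted p of 1.47e-05 (TIMELESS) to 2.28e-05 (CDC45). DBF4, the partner of the CDC7 kinase (-0.05 ± 0.06), and DONSON (-0.10 ± 0.07) did not pass and are named after their values were seen. In DU145DR MCM10 (-0.20 ± 0.05), DBF4B (-0.23 ± 0.06) and GINS3 (-0.23 ± 0.07) were lower.

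Of the regulators of the G1/S step, 15 of 27 were lower in 22Rv1DR (median -0.19), where 20.4% of symbols were. Another 5 were higher, near the 15.2% of all symbols that were. With construct 1, 15 were lower and 3 higher, and with construct 2, 11 were lower and 4 higher. Of the 13622 symbols tested, 2066 were lower and 1631 higher with construct 1, and 2802 were lower and 1981 higher with construct 2. The repressor E2F8 (-0.90 ± 0.07), the activator E2F2 (-0.57 ± 0.05) and TFDP1 (-0.53 ± 0.04), the dimer partner of E2F factors, were lower. Higher were the inhibitors CDKN1A (0.62 ± 0.05, adjusted p = 3.93e-05), CDKN2B (0.64 ± 0.10) and CDKN1B (0.22 ± 0.05), the pocket protein RBL2 (0.20 ± 0.06) and the cyclin CCNE1 (0.19 ± 0.06), the last 4 named after their values were seen. In DU145DR 4 of 27 were lower, among them CCND1 (-0.41 ± 0.05) and CDC25A (-0.26 ± 0.05), and 3 were higher, among them CDKN2B (0.78 ± 0.10) and CDKN1A (0.39 ± 0.05). Of all symbols 9.37% were lower and 14.5% higher in that line.

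S phase and mitosis lists moved with the members in 22Rv1DR. All 20 S phase genes were lower (median -0.58), among them CHAF1A (-0.79 ± 0.04), a chaperone that puts histones on new DNA, the DNA ligase LIG1 (-0.76 ± 0.04) and thymidylate synthase TYMS (-0.65 ± 0.04). RFC4, of the clamp loader, was listed at 0 in both construct 1 libraries of 22Rv1DR, with 41.4 and 35.9 FPKM with construct 2 and 41.9 and 44.4 FPKM in controls, and no fold change is given for it. RFC4 remains in the counts, the median and the sums of the S phase list, and its listed 0 enters the values over both constructs. Of 20 mitosis genes 18 were lower (median -0.47), among them CENPF (-0.67 ± 0.05), PLK1 (-0.63 ± 0.04), TPX2 (-0.59 ± 0.04) and BUB1B (-0.56 ± 0.04). With construct 1, 20 S phase and 19 mitosis genes were lower, where 15.2% of symbols were. With construct 2, 16 and 14 were, where 20.6% of symbols were, and 1 mitosis gene was higher. CDK1, named after its values were seen, had 56.3 FPKM with construct 1, 91.9 FPKM with construct 2 and 72.6 FPKM in controls. Summed S phase genes ran from 558 to 568 FPKM with construct 1, 727 to 788 FPKM with construct 2 and 958 to 978 FPKM in controls. Summed mitosis genes ran from 760 to 782 FPKM with construct 1, 910 to 1096 FPKM with construct 2 and 1184 to 1202 FPKM in controls. Both sums follow the order of the members, and their part in the members' change was not tested. In DU145DR 4 of 20 S phase genes (TYMS and POLE at -0.23 each, RFC3 at -0.19, RRM1 at -0.13) and 4 of 20 mitosis genes (PLK1 and AURKA at -0.21 each, BUB1B at -0.20, BIRC5 at -0.18) were lower, where 9.37% of symbols were. The line effect difference was lower in 17 of 20 S phase, 17 of 20 mitosis and 16 of 18 origin firing genes, where 15.9% of symbols were. It was also lower in 8 of 10 genes of the list with geminin, 13 of 27 G1/S regulators (2 higher) and 2 of 5 MCM relatives. ORC5 was higher (0.31 ± 0.09, adjusted p = 0.031). The DU145DR counts rest on single libraries: without 1A they were 0 of 18 for origin firing, 1 of 20 for S phase and 1 of 20 for mitosis.

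**Figure D5:**
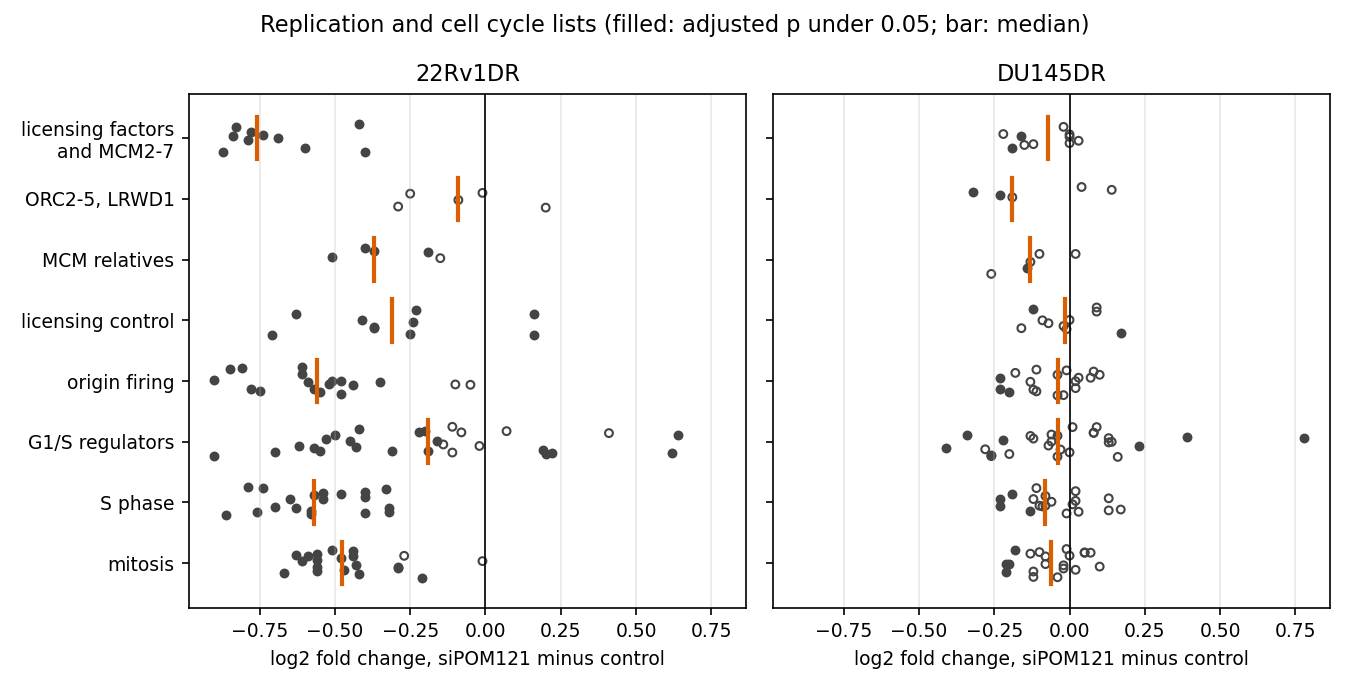
Log2 fold change over both constructs against control for the members and 7 other lists, in 22Rv1DR (left) and DU145DR (right); dots are genes (filled: adjusted p under 0.05), orange bars are list medians, vertical jitter carries no value, and RFC4 is left out. In 22Rv1DR the members have the lowest median (-0.76) of these lists, ahead of S phase and origin firing genes.

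Outside the members, the 5 symbols whose library values most resembled the members' mean, out of 8698 compared over 12 libraries after centring each line, were INCENP (r = 0.994), of the chromosomal passenger complex, CHAF1A (r = 0.993), CDC45 (r = 0.991), SPAG5 (r = 0.991), a spindle protein, and UBR7 (r = 0.989). The members themselves ran from 0.883 (ORC6) to 0.991 (ORC1). The r values are descriptions over libraries that share lines and controls. The fold changes of the 5 come from the libraries used to pick them, so they restate that choice. In 22Rv1DR these 5 changed less or about as much as the members: CHAF1A and CDC45 as given above, INCENP by -0.55 ± 0.04, SPAG5 by -0.52 ± 0.03 and UBR7 by -0.33 ± 0.03. In DU145DR 0 of the 5 passed, with values of -0.10 (SPAG5) to -0.01 (UBR7), where 9.37% of symbols were lower and 14.5% higher.

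Markers of the sampled cells were checked as well. All 10 of 10 epithelial and prostate markers were above the floor in 22Rv1DR, with sums of 1175 to 1183 FPKM with construct 1, 880 to 1030 FPKM with construct 2 and 978 to 996 FPKM in controls. In DU145DR 4 of the 10 were above the floor (117 to 125, 117 to 122 and 119 to 129 FPKM), and CDH1, KLK3, KLK2, HOXB13 and TMPRSS2 were among those listed at 0. With siPOM121 in 22Rv1DR 3 of the 10 were lower and 2 higher (median 0.01), where 20.4% of symbols were lower and 15.2% higher. KLK3 (-0.55 ± 0.12, near the floor at 1.08 to 2.23 FPKM) and KLK2 (-0.43 ± 0.09), secreted proteases of prostate epithelium, were among the lower. TMPRSS2 (0.30 ± 0.08) and the keratin KRT8 (0.24 ± 0.06) were higher. In DU145DR, with 4 of the 10 above the floor, KRT8 was the 1 called (0.25 ± 0.06). Of all symbols, 9.37% were lower and 14.5% higher in DU145DR. Of 12 markers of other cells, 9 were listed at 0 in every group, COL1A2, COL3A1, PDGFRB, PECAM1, VWF, CDH5, PTPRC, CD3E and HBB. The other 3 were ACTA2 (0.56 ± 0.14), COL1A1 (1.19 ± 0.08) and CD68 (-0.29 ± 0.08), with these log2 fold changes in DU145DR, where all 3 passed and ACTA2 and COL1A1 lay near the floor, at 1.04 to 1.13 FPKM in controls; CD68 was also called in 22Rv1DR (0.40 ± 0.08). The 12 summed to 13.7 to 14.4, 14 to 14.2 and 13 to 14.6 FPKM in 22Rv1DR and to 16.1 to 18.5, 15.5 to 17.1 and 16.9 to 17.8 FPKM in DU145DR (construct 1, construct 2, control).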

How the data were processed

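RNA-seq of 24 samples was used, with poly(A) libraries made by TruSeq RNA v2 per the labels' protocols. Per the submitters' processing notes, the tools were TopHat and Cufflinks and the builds hg19 and mm10; versions are not given in the sources used here. The deposited table holds log2 FPKM: 100% of its values above 0 become numbers of 6 significant digits as powers of 2 (within 0.02 of the sixth digit), against 3.97% as powers of e. Values at or under 1 FPKM stand at 0 (52.8%). For 605 symbols listed more than once, the copy of highest mean value was used. Lanes of a library were averaged on the log2 scale. limma 3.58.1 in R 4.3.3 was fitted with 1 mean per group, no block, trend and robust moderation and 6 residual degrees of freedom, on symbols above the floor in at least 2 of 12 libraries. FPKM of a library or group is the power of 2 of its mean log2 value. The fits were tested on simulated data. Genes other than the members were named by a rule: up to 4 called genes per list and line with the smallest p, and the 5 most like the members. The members and lists were chosen with earlier results of these data known. Alternatives were 2 pseudocounts, 2 filters, quantile normalization, leaving out each library, the replicate block, each line alone, single lanes, array weights, summed repeated symbols and, chosen after seeing the data, rescaled FPKM. Not every marker of the lists is reported by name here.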

Additional observations from a re-analysis of the deposited data

Results flagged for a closer look

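Of the 10 members, 9 responded differently in the 2 lines by a test of the difference itself (limma interaction, 22Rv1DR effect minus DU145DR effect on the log2 scale, adjusted over 13622 symbols), all lower, where 15.9% of symbols were lower. The values were -0.84 for MCM5, -0.83 for MCM2, -0.78 for MCM4, -0.71 for MCM3, -0.65 for ORC1, -0.63 for MCM6, -0.58 for CDC6, -0.55 for MCM7 and -0.39 for CDT1. Each kept its direction and its call in all 23 alternatives.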

How the results depend on the processing

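The counts of members called stayed within 1.5 times under every alternative run for siPOM121 (10), construct 1 (10) and construct 2 (8) in 22Rv1DR, the line effect difference (9) and the control lines (10), and so did the count of 0 between constructs in DU145DR. Between constructs in 22Rv1DR, 9 became 2 with each line fitted alone and 3 with array weights. In DU145DR the count over both constructs, 2, ran from 0 to 5 when 1 library was left out (0 without 1A, 1 without 2B, 5 without 4C or 5C) and was 5 with each line alone and with array weights. For construct 1 in DU145DR the 2 ran from 0 to 5 (0 without 1A, 1B or 2B, 1 without 4B or 5B, 5 without 4C or 5C), and was 1 with quantile normalization, 1 on the higher-numbered lanes, 0 with rescaled FPKM, and 5 with each line alone and with array weights. For construct 2 in DU145DR the 0 ran from 0 to 3 (1 without 2A, 3 without 4C or 5C), and was 1 with a pseudocount of 1 or 0.5 FPKM, 2 with quantile normalization, and 3 with each line alone and with array weights. The cause was not tested, except that fits of DU145DR alone or without 4C or 5C draw on a smaller spread. With the replicate block the construct 2 count in DU145DR was 1 and CDT1 passed with construct 2 in 22Rv1DR (limma, adjusted p = 0.0354). Correlations of deviations by library number ran from -0.102 to 0.126. They did not show a pairing of the samples, and weak correlations cannot exclude a pairing. No member reversed a called direction. The share of calls that were higher was 66.1% for construct 2 in DU145DR and 54.3% with quantile normalization, 41.4% and 54.6% (rescaled) for construct 2 in 22Rv1DR, 63% and 85.6% (rescaled) between constructs in 22Rv1DR, and 36% and 49.2% (quantile) for the line effect difference. Depth is unknown, so no counting error can be given.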
